A study of Mus musculus with 2 samples.

Results

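Of the 21905 genes listed for mouse bone cells, 8 are described here across cell classes: the transcription factors Ebf1, Ebf3, Foxc1, Runx1 and Prrx1 and the receptors Lepr, Pdgfra and Pdgfrb. They were named as regulators and receptors of CAR (Cxcl12-abundant reticular) cells, a choice made with earlier results of these data known. All 8 are listed in both libraries. The data came from 1 droplet single-cell RNA library of bones from 12-week-old female mice given vehicle (Veh) and 1 from mice of the same age and sex given doxorubicin (Doxo), a DNA-damaging chemotherapy drug, at 10 mg/kg for 96 h. In both groups, femurs and tibias were digested with collagenase and CD45+, CD71+ and Ter119+ cells were depleted; depletion of CD31+ cells is named in the sample protocol but not in the study's methods, and endothelial cells were still present. Neither the number of mice behind a library nor their strain is given in the labels, so each condition counted as 1 sample, no test between conditions was possible, and every interval below covers counting error only.

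CAR cells are stromal cells of the marrow that surround sinusoids and supply haematopoietic stem cells and B cell precursors with CXCL12 and stem cell factor. They share ancestry with the fat and bone cells of the marrow and can give rise to both. A small set of transcription factors is known to hold them in that state: Foxc1 and Ebf3 keep up their niche factor genes and restrain their differentiation into fat or bone, Ebf1 acts beside Ebf3, and Runx1 is known to restrain fibrotic conversion. Lepr, the leptin receptor, is the surface protein by which these cells are most often marked in adult marrow, whereas the PDGF receptors and the limb mesenchyme factor Prrx1 are shared with fibroblasts and skeletal progenitors.

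On the GRCm38 build, Ebf1 lies on chromosome 11 (44617317 to 45008091, plus strand), Ebf3 on chromosome 7 (137193673 to 137314445, minus strand) and Foxc1 on chromosome 13 (31806633 to 31812476, plus strand). Runx1 lies on chromosome 16 (92601466 to 92826149, minus strand) and Prrx1 on chromosome 1 (163245119 to 163313710, minus strand). Lepr lies on chromosome 4 (101717404 to 101815352, plus strand) and Pdgfra on chromosome 5 (75152292 to 75198215, plus strand). RefSeq promoters, each running from 250 bases before to 50 bases after a start site, were read for 7 of the 8 genes, 10 windows in all. The position and promoter of Pdgfrb are not reported here.

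A window of each of 5 genes is shown because these genes had their highest level in CAR-like cells in the results that follow. Ebf3 and Lepr stood farthest above every other class. Ebf1, Foxc1 and Runx1 were the genes with a window that held the RUNX core motif TGTGGT on either strand, set in capitals. Lepr, Ebf1 and Runx1 each had a further window, not shown, without the motif. The windows shown are GRCm38.p6, read 5′ to 3′ on the strand of the gene. Ebf3 is chr7:137314396-137314695 (minus strand), Lepr is chr4:101717157-101717456 (plus strand), Ebf1 is chr11:44617850-44618149 (plus strand), Foxc1 is chr13:31806396-31806695 (plus strand) and Runx1 is chr16:92826025-92826324 (minus strand), the distal of its start sites in the table.
Ebf3: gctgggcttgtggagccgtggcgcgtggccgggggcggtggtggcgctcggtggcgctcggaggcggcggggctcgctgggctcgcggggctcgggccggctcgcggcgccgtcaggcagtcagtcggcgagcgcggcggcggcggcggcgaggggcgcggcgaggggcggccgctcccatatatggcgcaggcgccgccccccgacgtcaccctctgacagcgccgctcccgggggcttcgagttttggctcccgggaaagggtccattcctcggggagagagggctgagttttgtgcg
Lepr: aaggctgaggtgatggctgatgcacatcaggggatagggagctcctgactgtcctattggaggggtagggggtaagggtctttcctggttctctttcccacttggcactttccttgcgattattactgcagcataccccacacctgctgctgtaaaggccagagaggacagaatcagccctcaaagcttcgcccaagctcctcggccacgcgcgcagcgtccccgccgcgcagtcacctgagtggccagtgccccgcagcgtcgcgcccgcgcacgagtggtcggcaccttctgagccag
Ebf1: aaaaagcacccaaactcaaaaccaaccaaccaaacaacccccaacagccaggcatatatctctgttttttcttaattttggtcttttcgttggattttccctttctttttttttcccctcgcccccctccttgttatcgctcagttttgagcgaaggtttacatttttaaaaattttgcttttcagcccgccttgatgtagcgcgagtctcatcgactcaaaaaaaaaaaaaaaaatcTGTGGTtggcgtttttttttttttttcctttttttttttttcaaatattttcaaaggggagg
Foxc1: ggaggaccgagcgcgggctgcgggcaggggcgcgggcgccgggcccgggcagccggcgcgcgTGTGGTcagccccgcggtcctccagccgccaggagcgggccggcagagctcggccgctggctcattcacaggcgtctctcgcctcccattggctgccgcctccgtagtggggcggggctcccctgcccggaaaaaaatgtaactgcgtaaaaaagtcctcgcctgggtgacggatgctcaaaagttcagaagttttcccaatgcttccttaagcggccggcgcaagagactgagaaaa
Runx1: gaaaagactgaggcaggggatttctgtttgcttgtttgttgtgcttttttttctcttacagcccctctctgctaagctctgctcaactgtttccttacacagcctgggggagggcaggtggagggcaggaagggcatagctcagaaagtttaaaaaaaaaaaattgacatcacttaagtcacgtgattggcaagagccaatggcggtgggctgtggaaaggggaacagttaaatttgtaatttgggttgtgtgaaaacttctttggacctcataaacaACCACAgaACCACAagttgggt
Positions counted from 1 at the 5′ end of the window, the match began at 239 in Ebf1 and at 63 in Foxc1, and the Runx1 window held 2 matches on the other strand, beginning at 279 and 287. Of the 10 windows 3 (30%) held TGTGGT, against 16.8% of all 32851 promoter windows of the same length. The forkhead core TGTTTAC, also read on both strands, was in 0 of the 10 windows and in 3.65% of all. The letters of the motifs differ and their matches did not overlap here, and a match describes letters only.

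Each library held 2488 cells, with 24859744 UMIs (unique molecular identifiers, 1 per captured RNA molecule) in Veh and 20792059 in Doxo, medians of 8693 and 7347.5 per cell, and 4 cell barcodes that occurred in both libraries. Cells were clustered with the 8 genes left out of the variable genes, and the clusters were named from marker lists that hold none of them. The CAR-like class held 368 Veh and 427 Doxo cells and met all 8 of its markers, Adipoq, Cxcl12, Lpl and Kitl among them. The other classes were bone and cartilage fibroblast-like (1085 and 1344 cells), arteriolar and endosteal fibroblast-like (435 and 262), osteoblast-like (207 and 125), chondrocyte-like (246 and 206), endothelial-like (103 and 69), and a cluster of 44 and 55 cells left unnamed because it met only 2 markers of any list. A level is the UMIs of a gene summed over the cells of a class per 1000000 UMIs of that class (counts per 1000000, written CPM), with an exact Poisson 95% interval behind it. Levels are read between classes within a gene.

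Of the 8 genes 6 had their highest level in CAR-like cells in Veh, and the same 6 did so in Doxo: Ebf1, Ebf3, Foxc1, Runx1, Lepr and Pdgfrb. Among all genes with at least 20 UMIs, 25.4% were highest in CAR-like cells in Veh, 28.1% in Doxo and 16.7% in both. At least 2 times the level of every other class was reached by 4 genes, Ebf3, Lepr, Runx1 and Pdgfrb, again the same 4 in each library. Foxc1 was just under this mark in Doxo, at 1.97-fold, and passed it there under 6 of 10 alternatives. The share of all genes that passed this rule was 4.58% in Veh, 5.9% in Doxo and 3.03% in both. Pdgfra and Prrx1 had their highest level in the arteriolar and endosteal fibroblast-like class in each. The 8 genes were chosen as genes of CAR cells with earlier results of these data known. The shares of all genes are therefore a background, and the counts of the 8 beside them are no test of the list.

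**Figure D1:**
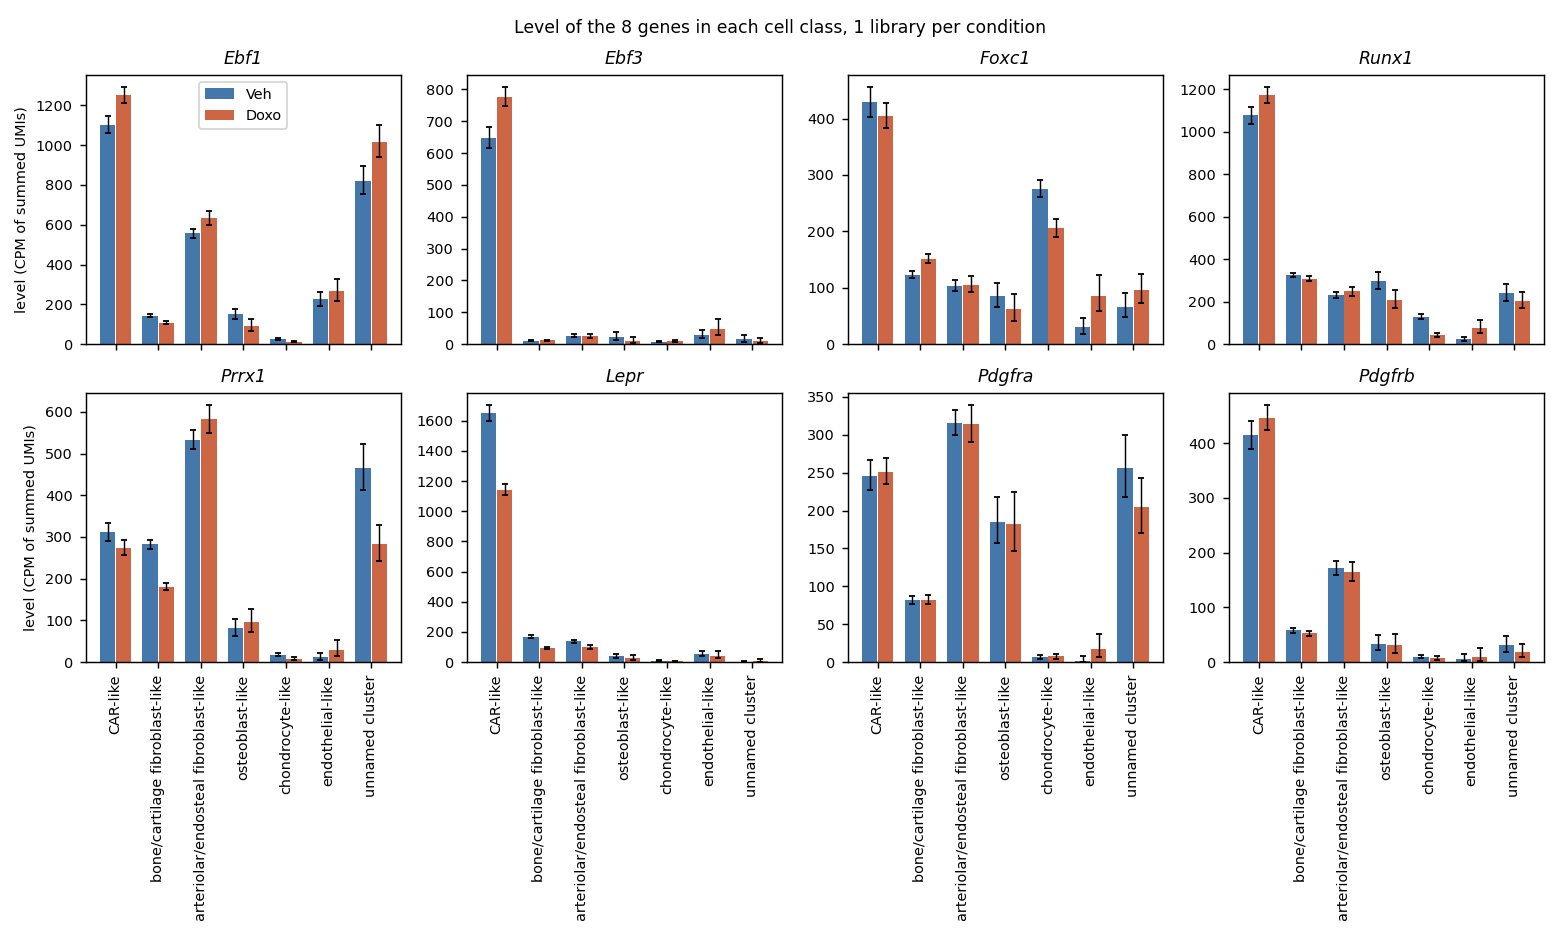
Level of each gene (CPM of summed UMIs, linear axis starting at 0, a scale of its own per panel) in each cell class, with Veh in blue and Doxo in orange, 1 library each; lines are exact Poisson 95% intervals. Ebf3, Lepr, Runx1 and Pdgfrb stand at least 2 times above every other class in CAR-like cells, whereas Pdgfra and Prrx1 are highest in the arteriolar and endosteal fibroblast-like class.

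Ebf3, an early B cell factor of the COE family, was the most restricted of the 8 genes. Its level in CAR-like cells was 648 CPM (95% interval 617 to 681) in Veh and 776 CPM (746 to 806) in Doxo, and the next class, endothelial-like cells, had 28.5 CPM in Veh and 48.6 CPM in Doxo. The CAR-like level was therefore 22.7-fold the next class in Veh and 16.0-fold in Doxo. CAR-like cells held 83.8% of all Ebf3 UMIs in Veh and 91.9% in Doxo, beside 10.1% and 16.1% of the UMIs of all genes. Among the other classes in Veh the order was resolved only in part. No pair of neighbours below CAR-like cells, from endothelial-like down to chondrocyte-like cells, had a ratio whose interval excluded 0 on the log2 scale. Farther apart, arteriolar and endosteal fibroblast-like cells had 26.6 CPM (21.9 to 31.9). Bone and cartilage fibroblast-like cells had 10.1 CPM (8.31 to 12.2) and chondrocyte-like cells 7.84 CPM (5.55 to 10.8).

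Ebf3 was also found in most single CAR-like cells. The Veh library had an Ebf3 UMI in 92.7% of its CAR-like cells, with an exact binomial 95% interval of 89.5 to 95.1%, and the Doxo library in 94.8% (92.3 to 96.7%), where the median cell held 6218 and 7310 UMIs. In endothelial-like cells, the next class by level, the shares were 16.5% and 18.8%, and the median cell held 6326 and 4628 UMIs. When every cell was thinned to 2000 UMIs, the CAR-like shares were 68.7% and 75.7% the endothelial-like shares 7.29% and 11.5% and the chondrocyte-like shares 0.833% and 1.49%.

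Ebf1, its close relative and best known as a B lineage factor, had a much wider range. The CAR-like level was 1103 CPM in Veh and 1252 CPM in Doxo, followed by the unnamed cluster (822 and 1018 CPM) and the arteriolar and endosteal fibroblast-like class (557 and 634 CPM). Against the next class the CAR-like level was 1.34-fold in Veh and 1.23-fold in Doxo, with log2 ratios of 0.42 (95% interval 0.29 to 0.56) and 0.30 (0.18 to 0.42). Endothelial-like cells had 224 and 266 CPM, osteoblast-like cells 149 and 92.4 CPM, bone and cartilage fibroblast-like cells 143 and 108 CPM, and chondrocyte-like cells 26.4 and 11.3 CPM. Ebf1 was thus highest in CAR-like cells without reaching 2 times the next class. In the unnamed cluster Ebf3 had 10 UMIs in Veh and 5 in Doxo.

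Foxc1, a forkhead factor needed for the CAR cell niche, was high in a second class. CAR-like cells had 429 CPM in Veh and 405 CPM in Doxo and chondrocyte-like cells 275 and 205 CPM, ratios of 1.56-fold and 1.97-fold. Bone and cartilage fibroblast-like cells followed with 123 and 152 CPM and arteriolar and endosteal fibroblast-like cells with 103 and 105 CPM. At equal depth the gap to chondrocyte-like cells was plain: 57.0% of CAR-like cells and 36.2% of chondrocyte-like cells had a UMI in Veh after thinning, and 56.0% and 27.4% did in Doxo, beside 4.17% and 13.1% of endothelial-like cells. Without thinning the Veh shares were 82.6% and 81.3%, at median depths of 6218 and 19484.5 UMIs.

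Runx1, the core-binding factor known for its part in blood formation, had 1076 CPM in CAR-like cells in Veh and 1171 CPM in Doxo. The next class in each library was bone and cartilage fibroblast-like, with 326 and 308 CPM, so the ratio was 3.31-fold in Veh and 3.81-fold in Doxo. Osteoblast-like cells (298 and 207 CPM), the unnamed cluster (239 and 205 CPM) and arteriolar and endosteal fibroblast-like cells (231 and 248 CPM) lay just below. Every mesenchymal class had some Runx1, and the endothelial-like class had the lowest level in Veh, 21.4 CPM.

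Prrx1, a homeobox factor of the limb mesenchyme, was not a CAR gene by level. It was highest in arteriolar and endosteal fibroblast-like cells, with 533 CPM in Veh and 582 CPM in Doxo. CAR-like cells had rank 3 in each library with 311 and 273 CPM, which was 0.583 and 0.470 of that level. The unnamed cluster had 465 and 283 CPM, and its Doxo level could not be set apart from that of CAR-like cells (log2 ratio 0.05, 95% interval -0.19 to 0.29). Chondrocyte-like and endothelial-like cells had between 8.06 and 28.6 CPM.

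Lepr had 4128 UMIs in CAR-like cells of Veh and 3828 in Doxo. The level was 1650.4 CPM (1600.5 to 1702) in Veh and 1143 CPM (1108 to 1180.3) in Doxo. Bone and cartilage fibroblast-like cells had 169 and 94.1 CPM and arteriolar and endosteal fibroblast-like cells 138 and 98.8 CPM, so the CAR-like level was 9.78-fold the next class in Veh and 11.6-fold in Doxo. In the unnamed cluster no Lepr UMI was found in Veh, which allows up to 4.84 CPM at 3 counts, and 5 UMIs in Doxo. A UMI of Lepr was present in 98.4% of CAR-like cells in Veh and 96.7% in Doxo, and in 22.3% and 10.1% of endothelial-like cells.

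Thinning parted the libraries further for this receptor. At 2000 UMIs per cell, 89.2% of CAR-like cells had a Lepr UMI in Veh (95% interval 85.4 to 92.2%) and 81.0% in Doxo (76.9 to 84.7%). At this depth a UMI was present in 20.8% of bone and cartilage fibroblast-like cells of Veh and 15.4% of Doxo, and in 16.8% and 14.5% of arteriolar and endosteal fibroblast-like cells. The endothelial-like shares were 12.5% (6.63 to 20.8%) and 8.20% (2.72 to 18.1%), and their intervals held the shares of both fibroblast-like classes.

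Pdgfrb, the PDGF receptor beta known from pericytes and other perivascular cells, had 415 CPM in CAR-like cells in Veh and 446 CPM in Doxo. Arteriolar and endosteal fibroblast-like cells came next with 172 and 164 CPM, a ratio of 2.41-fold in Veh and 2.72-fold in Doxo. Pericyte and smooth muscle markers also differed between the libraries in CAR-like cells: the 6 genes of that list (Rgs5, Acta2, Myh11, Notch3, Mcam, Tagln) summed to 149 CPM in Veh and 332 CPM in Doxo, with none at 0, and their part in the Pdgfrb level was not tested. The remaining classes had between 5.71 and 57.7 CPM.

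Pdgfra, the PDGF receptor alpha of fibroblasts and mesenchymal progenitors, was shared more evenly. It stood at 316 and 314 CPM in arteriolar and endosteal fibroblast-like cells, 246 and 251 CPM in CAR-like cells, 257 and 205 CPM in the unnamed cluster and 185 and 183 CPM in osteoblast-like cells. The CAR-like level was 0.779 of the highest class in Veh and 0.800 in Doxo, and in Veh it could not be set apart from that of the unnamed cluster. Endothelial-like cells had 1 Pdgfra UMI in Veh and 6 in Doxo, and chondrocyte-like cells 6.60 and 7.41 CPM.

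**Figure D2:**
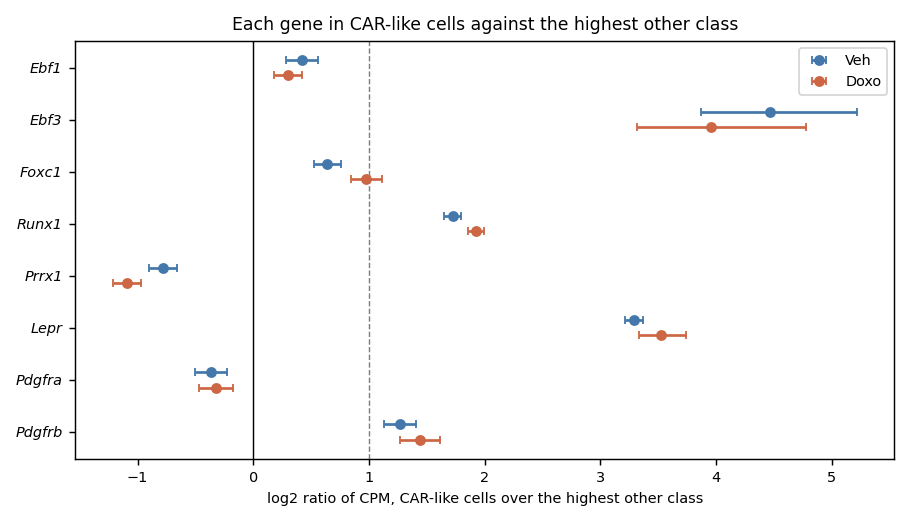
log2 ratio of the CAR-like level (CPM) to the highest level in any other class for each gene, Veh in blue and Doxo in orange, with exact conditional 95% intervals for counting error; the solid line marks equality and the dashed line 2-fold. Ebf3 and Lepr lie farthest to the right, Foxc1 and Ebf1 lie between the lines or close to them, and Pdgfra and Prrx1 lie left of equality in both libraries.

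The UMIs found outside CAR-like cells were set against Adipoq, an adipokine gene of the CAR marker list. Adipoq stood at 2929 CPM in CAR-like cells in Veh and 3491 CPM in Doxo, and at 0.276 to 1.02% of that level in the other classes in Veh. In Doxo it was at 0.0458 to 0.353% in all other classes except endothelial-like cells, where it was at 3.44% (120.0 CPM). Ebf3 in endothelial-like cells was 8.21 times what the Adipoq share alone would carry there in Veh and 1.82 times in Doxo. Lepr in chondrocyte-like cells of Veh was 1.26 times that amount, and in endothelial-like cells of Doxo 1.09 times. By contrast Ebf1 in arteriolar and endosteal fibroblast-like cells was 49.6 times that amount in Veh, Runx1 in bone and cartilage fibroblast-like cells 57.5 times, Foxc1 in chondrocyte-like cells 132 times, and Lepr in bone and cartilage fibroblast-like cells 19.4 times.

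Taken per cell, most CAR-like cells held several of the 8 genes. Whether the genes occurred together beyond what the share of each gene alone gives was not tested. After thinning to 2000 UMIs, which left out 17 Veh and 11 Doxo CAR-like cells, a CAR-like cell had a UMI of a median of 5 of the 8 genes in each library. At least 4 of the 8 were found in 86.6% of CAR-like cells in Veh (304 of 351) and 86.3% in Doxo (359 of 416; 95% interval 82.6 to 89.5%). The next class, arteriolar and endosteal fibroblast-like, reached 21.7% and 19.5%, and bone and cartilage fibroblast-like cells 7.47% and 6.88%. Endothelial-like cells had 0 of 96 cells in Veh, which allows up to 3.125% at 3 cells, and 1.64% in Doxo. Without thinning the CAR-like median was 7 genes in Veh and 8 in Doxo, and Ebf1 and Lepr were both present in 96.5% and 95.1% of CAR-like cells.

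**Figure D3:**
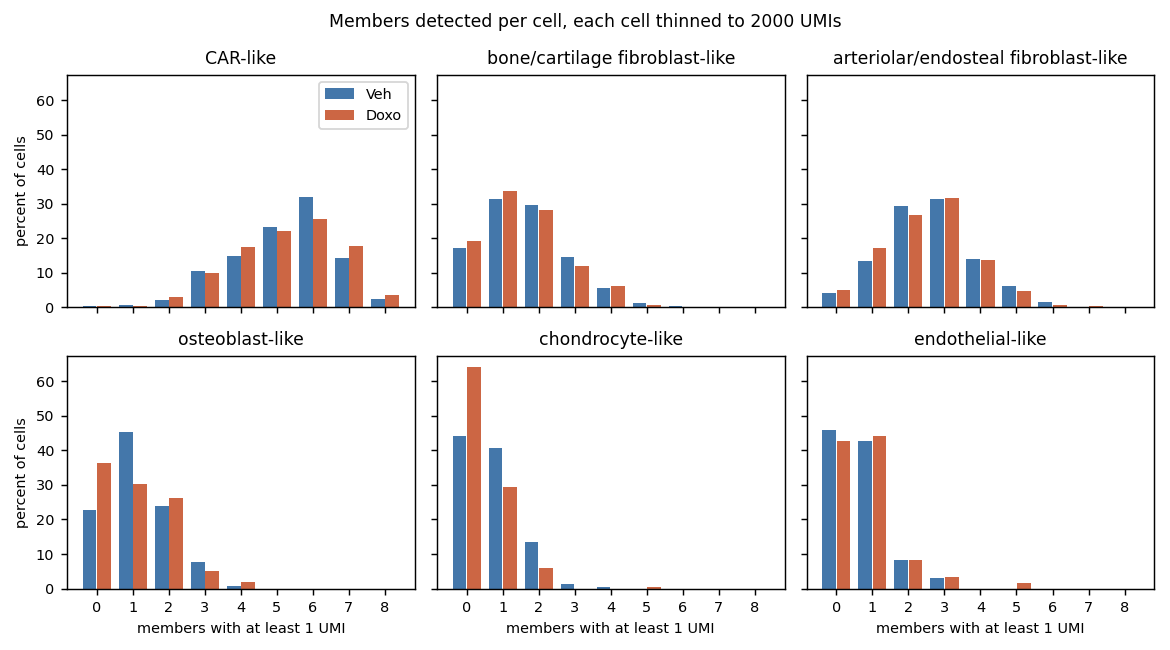
Percent of cells (vertical axis) by the number of the 8 genes with at least 1 UMI (horizontal axis) in 6 cell classes, Veh in blue and Doxo in orange, each cell thinned to 2000 UMIs. CAR-like cells have a median of 5 genes in both libraries, with 6 the most frequent number, and the other classes have medians of 0 to 3.

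Between the libraries, none of the 8 genes passed a fold of 1.5 in CAR-like cells in either direction, where 13.3% of the 11468 genes tested were higher in Doxo by that fold and 9.75% lower. Lepr came closest: the Doxo level was 0.693 of the Veh level, a log2 ratio of -0.53 (95% interval -0.59 to -0.47). Ebf3 had a log2 ratio of 0.26 (0.17 to 0.35), Ebf1 of 0.18 (0.11 to 0.25) and Runx1 of 0.12 (0.05 to 0.19). Prrx1 had -0.19 (-0.33 to -0.05), and the intervals of Pdgfrb (0.10), Pdgfra (0.03) and Foxc1 (-0.08) held 0. The median of the 8 log2 ratios was 0.07, beside 0.06 for all genes tested.

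Lepr passed the 1.5-fold rule, as the 1 gene of 8, when each cell was thinned to 2000 UMIs (log2 ratio -0.66). It did so too when the inflammatory CAR-like cells described below were left out. The share of all genes past the fold was not taken in these settings. Markers of other cell types, summed over the CAR-like cells, differed between the libraries beside these values. The 4 erythroid markers summed, Alas2 among them, had 447 CPM in CAR-like cells of Veh and 2.99 CPM of Doxo. This sum was lower in Doxo in every other class too, with 297 and 2.05 CPM in bone and cartilage fibroblast-like cells and 397 and 0 CPM in osteoblast-like cells. The 8 osteoblast markers summed to 8045 and 2193 CPM, the 8 bone and cartilage fibroblast markers to 2645 and 1706 CPM and the 7 immune markers to 135 and 76.5 CPM. The 8 endothelial markers summed to 105 UMIs in Veh, with Kdr and Tie1 at 0, and to 63 UMIs in Doxo. Whether this RNA came from other cells or from the CAR-like cells themselves, and its part in the ratios of the 8 genes, was not tested.

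Outside CAR-like cells, Lepr had a log2 ratio below 0 in all 5 named classes, with intervals that held 0 in osteoblast-like and endothelial-like cells, and further genes were lower in Doxo in fibroblast-like, chondrocyte-like and osteoblast-like cells. In the bone and cartilage fibroblast-like class 2 of 8 genes were lower past 1.5-fold, where 9.3% of all genes tested were lower and 4.27% higher: Lepr with a log2 ratio of -0.84 (-0.95 to -0.73) and Prrx1 with -0.64 (-0.72 to -0.56). Chondrocyte-like cells had 4 of 8 (11.4% of all): Runx1 at -1.61 (-1.90 to -1.34), Ebf1 at -1.21 (-1.81 to -0.68), Lepr at -1.13 (-2.14 to -0.28) and Prrx1 at -1.12 (-1.84 to -0.48). Runx1 stood at 129 CPM in Veh and 42.2 CPM in Doxo, and the other 3 were at 10.1 to 26.4 CPM in Veh. After thinning, 23.8% of chondrocyte-like cells had a Runx1 UMI in Veh and 6.47% in Doxo, beside 1.04% and 6.56% of endothelial-like cells. Other marker sums moved in the same chondrocyte-like cells: the 8 chondrocyte markers had 45458 CPM in Veh and 33885 CPM in Doxo, the 8 osteoblast markers 10360 and 3665 CPM, the 8 bone and cartilage fibroblast markers 11121 and 7283 CPM and the 4 erythroid markers 602 and 2.26 CPM. Their part in the 4 ratios was not tested.

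Osteoblast-like cells had Ebf1 (-0.68, -1.22 to -0.19) and Ebf3 lower past 1.5-fold, 2 of 8 against 19.2% of all genes tested, with Ebf3 resting on 19 Veh and 4 Doxo UMIs and an interval that held 0. Arteriolar and endosteal fibroblast-like cells had 0 of 8 genes past the fold, where 6.8% of all genes were higher and 10.1% lower; Lepr there had -0.48 (-0.71 to -0.25). Endothelial-like cells had Ebf3, Foxc1 and Runx1 higher past the fold, 3 of the 5 genes tested against 14.5% of all, with 15 to 30 UMIs of each gene per library and an interval that held 0 for Ebf3, and Adipoq was 15.7 CPM in Veh and 120.0 CPM in Doxo in the same cells. In the unnamed cluster Prrx1 (-0.71, -0.99 to -0.44) and Pdgfrb (19 and 12 UMIs) were lower, 2 of 6 tested against 10.1% of all. Of the 8 genes 3, Ebf1, Runx1 and Prrx1, had log2 ratios of opposite sign in CAR-like cells and in another class with both intervals clear of 0. So did 8.16% of all genes tested and 39.7% of the 602 genes whose CAR-like UMIs reached the 1456 of the lowest of the 8, a share near that of the 8.

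**Figure D4:**
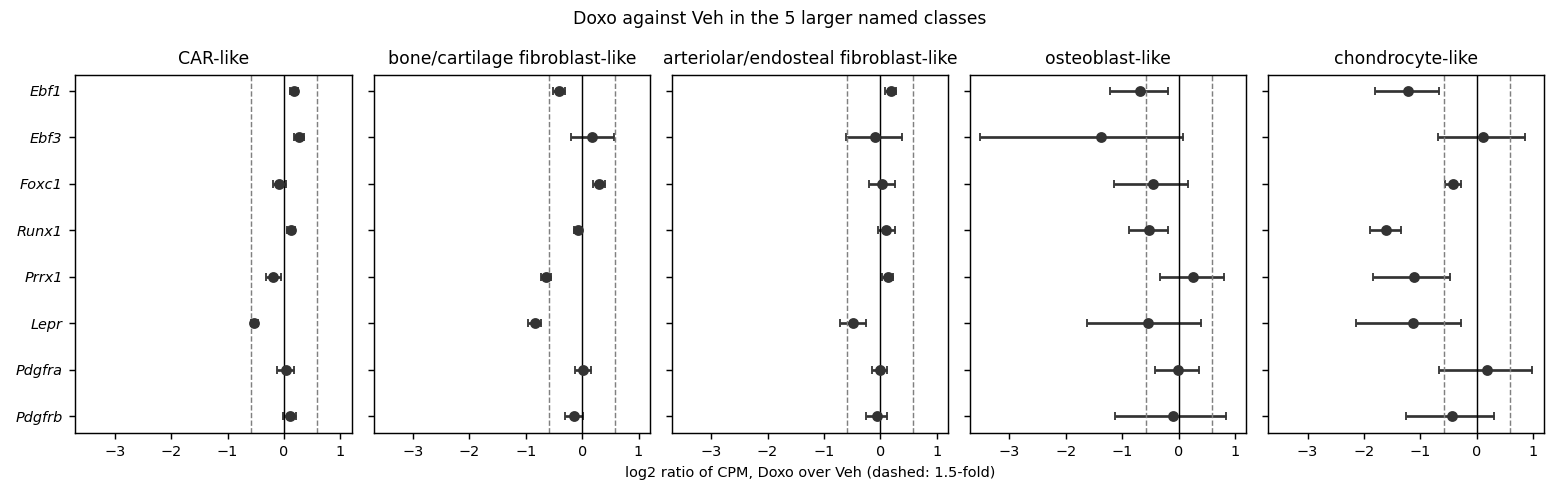
log2 ratio of the Doxo level to the Veh level (CPM) for each gene in the 5 larger named classes, with exact conditional 95% intervals for counting error; the solid line marks no difference and the dashed lines 1.5-fold. All 8 genes lie within 1.5-fold in CAR-like cells, Lepr lies left of 0 in all 5 classes, and 4 genes lie beyond the left dashed line in chondrocyte-like cells.

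The excess in CAR-like cells over all other cells pooled was larger in Doxo for 7 of the 8 genes, with intervals above 0. The same held for 18.4% of the 11468 genes tested in CAR-like cells, and for 45.7% of the 602 genes with at least the 1456 UMIs of the lowest of the 8. The median difference was 0.21 for the 8 genes and 0.09 for those 602. For Ebf1 the log2 ratio of CAR-like to other cells was 2.33 in Veh and 2.71 in Doxo, a difference of 0.38 (Wald 95% interval 0.29 to 0.48). For Pdgfrb it was 2.65 and 3.01 (difference 0.36, 0.19 to 0.52), and for Ebf3 5.53 and 5.89 (0.36, 0.10 to 0.62). Prrx1 (0.22), Pdgfra (0.20), Runx1 (0.18) and Lepr (0.14) had differences whose intervals also lay above 0, and Foxc1 had -0.12 (-0.25 to 0.02). In the other cells pooled, Lepr was lower in Doxo as well, with a log2 ratio of -0.67 (-0.76 to -0.57). The make-up of the other cells differed between the libraries, and these differences hold the class sizes as well as the levels.

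Within the CAR-like class, clustering gave 3 subclusters. Subcluster 1 held 187 Veh and 321 Doxo cells, subcluster 2 held 171 and 92 cells and was led by the inflammatory genes Ccl2, Ccl7 and Cxcl1, and subcluster 3 held 10 and 14 cells, was led by Npy, Msmp and Clec3a with the cartilage gene Acan among its 10 leading genes, and had medians of 14444 and 20824 UMIs. Doublets were not removed, and their part in subcluster 3 was not tested. The 6 inflammatory markers summed over all CAR-like cells to 4545 CPM in Veh and 339 CPM in Doxo. In Veh, 7 of the 8 genes were lower in the inflammatory subcluster than in subcluster 1, from a log2 ratio of -0.58 for Foxc1 to -0.25 for Lepr, each with an interval below 0. The median of the 8 log2 ratios was -0.40, beside -0.29 for all 9328 genes with at least 20 UMIs, of which 25% were lower by the same rule and 9.54% higher. Of the 606 genes with at least the 582 UMIs of the lowest of the 8, 29.9% were lower and 40.4% higher, with a median of 0.07, and the median cell of the inflammatory subcluster held 7216 UMIs against 4784 in subcluster 1. Of the 8 genes only Runx1 was higher there, by 0.18 (0.06 to 0.29) in Veh and by 0.46 (0.36 to 0.56) in Doxo.

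In Doxo the subclusters were closer for Ebf1 (-0.06, -0.16 to 0.05) and Ebf3 (-0.05, -0.19 to 0.08), whose levels there were 1275 and 1327 CPM and 790 and 818 CPM. Within subcluster 1, the Doxo to Veh log2 ratio was 0.03 for Ebf1 and 0.08 for Ebf3, both with intervals that held 0, whereas it was 0.33 (0.21 to 0.45) and 0.44 (0.29 to 0.60) within the inflammatory subcluster. Lepr was lower in Doxo in all 3 subclusters, by log2 ratios of -0.60 (-0.69 to -0.52), -0.52 (-0.64 to -0.40) and -0.71 (-1.03 to -0.38). Foxc1 (-0.32, -0.48 to -0.17), Prrx1 (-0.30, -0.48 to -0.11) and Pdgfra (-0.26, -0.46 to -0.06) were lower in Doxo within subcluster 1, whereas within the inflammatory subcluster Pdgfra was higher (0.51, 0.25 to 0.77), as was Runx1 (0.39, 0.27 to 0.50). The boundary of the inflammatory subcluster moved with the clustering: it held 171 and 92 cells at a subclustering resolution of 0.2, and at 0.1 it held 84 and 4 cells with the 8 genes among the variable genes and 80 and 2 cells with the stricter cell filter and the 8 genes left out. All CAR-like cells together held 11369 UMIs of the 6 inflammatory markers in Veh and 1135 in Doxo. The marker sum was not taken within the subcluster per library. Its Doxo cells may therefore be less inflammatory than its Veh cells, and its Doxo to Veh ratios may compare unlike cells.

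**Figure D5:**
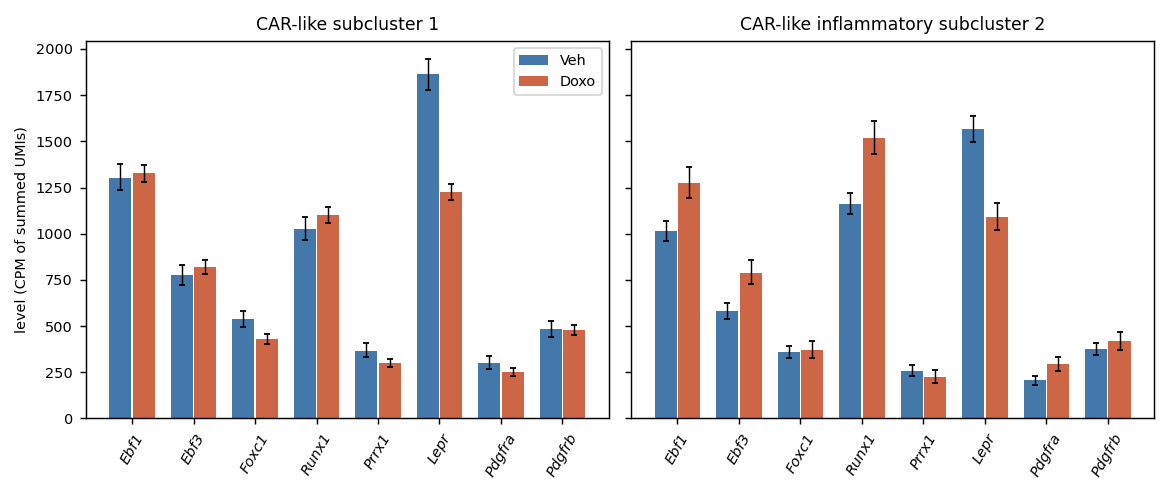
Level (CPM of summed UMIs, axis starting at 0) of the 8 genes in CAR-like subcluster 1 (left) and the inflammatory subcluster 2 (right), Veh in blue and Doxo in orange, with exact Poisson 95% intervals. Lepr is lower in Doxo in both panels, and Ebf1, Ebf3, Runx1 and Pdgfra are higher in Doxo in the right panel.

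Other genes of the same pathways were read in CAR-like cells from 5 lists, again by the 1.5-fold rule and beside the 13.3% of genes higher and 9.75% lower. Of the EBF family and cofactors 3 were tested, and Ebf2 (47 and 107 UMIs) and Zfp521 (18 and 55 UMIs), a zinc finger protein known to bind EBF1, were higher in Doxo. Without the inflammatory subcluster, a setting chosen after the data were seen, 1 of the 3 was higher, with Ebf2 at 0.52 (-0.14 to 1.27) and Zfp521 at 0.77 (-0.12 to 1.87). The shares of all genes given above are for all CAR-like cells and were not taken without that subcluster. Of 6 RUNX family genes and cofactors 1 was lower, the corepressor Cbfa2t3 (34.0 and 8.96 CPM), and Runx2, the osteoblast factor, had 229 and 210 CPM (log2 ratio -0.13). Of 3 PDGF genes tested 1 was lower, the ligand Pdgfd (33.6 and 21.5 CPM), and 0 of 3 were without the inflammatory subcluster (Pdgfd -0.44, -1.07 to 0.23).

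The leptin signalling genes had a median log2 ratio of -0.55, on the same side of 0 as Lepr. Of the 8 genes tested 3 were lower past 1.5-fold and 0 higher: the kinase Jak2 (82.4 and 35.8 CPM), the feedback inhibitor Socs3 (747 and 462 CPM) and the phosphatase Ptpn2 (55.6 and 29.6 CPM). The transcription factor Stat3 had 289 and 200 CPM (-0.54, -0.69 to -0.38), and Ptpn1 had -0.57 (-0.81 to -0.33). Leprot (0.18), Leprotl1 (-0.03) and Sh2b1 (0.11) had intervals that held 0. Whether the lower genes were tied to leptin or to Lepr was not tested. Without the inflammatory subcluster the median was -0.29 and 2 of 8 were lower, Jak2 (-0.69) and Ptpn2 (-0.71), and Socs3 turned to 0.43 (0.22 to 0.64). The share and the median of all genes were not taken in that setting.

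Among 17 other forkhead and mesenchymal transcription factors tested, 1 was higher past 1.5-fold, Prrx2, on 6 and 16 UMIs with an interval that held 0. Lower past 1.5-fold were 3: Cebpb (1002 and 326 CPM, -1.62), Msx1 (39.6 and 22.1 CPM, -0.84) and Meox1 (9.60 and 6.27 CPM, on 24 and 21 UMIs with an interval that held 0). Cebpb had -0.24 without the inflammatory subcluster. Snai2 (284 and 312 CPM) and Cebpa (252 and 269 CPM) were at least 2 times as high in CAR-like cells as in every other class in both libraries, as were 4 of the 8 genes described here. Pparg, the fat cell factor, was higher in Doxo within the fold (114 and 168 CPM, log2 ratio 0.56, 0.35 to 0.77).

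The genes whose level most resembled each of the 8 were sought over the 14 class and library profiles among 10693 genes with at least 200 UMIs, by Pearson correlation of log2(CPM + 1). The profiles share libraries and depth, and the values are descriptions. Ebf3 was closest to Lpl (r = 0.98), Dlg5 (0.98) and St5 (0.97), Ebf1 to Rarres2 (0.96), Slc9a9 (0.95) and Ppp3r1 (0.95), and Foxc1 to Plekhh2 (0.94), Gpc6 (0.94) and Thsd4 (0.93). Runx1 was closest to Clmp (0.95) and Esr1 (0.94), and Lepr to Cx3cl1 (0.92), Med13l (0.91) and Hsd11b1 (0.91). Pdgfrb was closest to Fst (0.97), Ccbe1 (0.96) and Apbb1ip (0.95). Pdgfra and Prrx1 had the same closest gene, Pcolce (0.97 and 0.96), followed by Pla2g4a (0.96) for Pdgfra and Fkbp2 (0.95) and C1qtnf7 (0.94) for Prrx1.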

How the data were processed

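Cells of both libraries were sequenced with a droplet 3′ kit (10X Genomics Chromium v3). Cell Ranger and Partek are named in the submitters' processing notes, with GRCm38 (mm10) as the genome build; their versions and the annotation release are not given in the sources used here. The authors deposited 1 table per library of log2 values per gene and cell, made by scaling each cell to 1000000 in 2 rounds. These values were turned back into UMIs by solving for each cell's total: 99.9% of the nonzero values up to 50 UMIs came out whole within 0.05 of a UMI in each library, and all of those of the 8 genes did. Groups came from the treatment label.

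Cells were clustered with Seurat 5.3.0 in R 4.3.3 (2000 variable genes without the 8 genes described, 35 principal components, resolution 0.1), endothelial cells being set apart before the rest were clustered again. A cluster took the name of the class with the most markers that 10% or more of its cells held at a level 1 log2 unit or more above other cells, 3 being needed, and its 10 leading genes were checked. Doublets were not removed. Sums, exact intervals and thinning (seed 7) were computed with numpy 2.4.6 and scipy 1.17.1, with 0.5 UMI added to each sum in a log2 ratio and at least 20 UMIs asked of a gene. UMIs of sequenced molecules were counted, and intervals leave out variation between mice. With 1 library per condition no test was run, and calls rest on folds of 2 (classes) and 1.5 (conditions). The statistics were tested on simulated data. The genes named are the 8, those of the 5 other lists given with their counts, and the 3 most alike genes of each of the 8, except that a few results are not reported here. The 8 genes, the lists and the naming rule were chosen with earlier results of these data known. Alternatives varied the clustering, the class rule, the cell filter, depth, the weight of cells, high-UMI cells, the inflammatory subcluster, scaling and the added UMI.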

Additional observations from a re-analysis of the deposited data

Results flagged for a closer look

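Of the 8 genes 3 moved in opposite directions between the libraries in CAR-like cells and in another class, with both counting intervals clear of 0; with 1 library per condition the differences were not tested. Among the 602 genes with at least as many CAR-like UMIs as the lowest of the 8, 39.7% did so as well. For Ebf1 the Doxo to Veh log2 ratio in CAR-like cells exceeded that in bone and cartilage fibroblast-like cells by 0.59 (Wald 95% interval 0.46 to 0.72), that in osteoblast-like cells by 0.87 (0.37 to 1.36) and that in chondrocyte-like cells by 1.40 (0.86 to 1.94). Without the inflammatory subcluster the Ebf1 ratio in CAR-like cells itself was 0.05, against 0.18 with it. For Runx1 the same differences were 0.20 (0.11 to 0.30), 0.64 (0.30 to 0.98) and 1.73 (1.45 to 2.01); its log2 ratio of -0.08 in bone and cartilage fibroblast-like cells lay beside a median of -0.09 for all genes there. For Prrx1 the ratio in CAR-like cells was below that in arteriolar and endosteal fibroblast-like cells, a difference of -0.31 (-0.48 to -0.14).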

How the results depend on the processing

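The counts of genes highest in CAR-like cells (6 of 8 in each library) and at least 2 times as high as in every other class (4 of 8) stayed within 1.5 times under the 10 alternatives; the latter was 5 in Doxo, with Foxc1 added, under 6 of them and 4 in the rest. The count of genes past 1.5-fold between Doxo and Veh in CAR-like cells was 0 as reported. It became 1 with each cell thinned to 2000 UMIs and 1 without the inflammatory CAR-like subcluster, Lepr in both. The cause was not tested, and the share of all genes past the fold was not taken in these settings. Of 216 single-gene values under alternatives, 174 stayed within the counting interval of the reported value, 42 moved outside it and 0 turned the sign of a called value. No Doxo to Veh ratio in CAR-like cells was called as reported, so that 0 does not cover these ratios. Among them Pdgfra kept its sign under 7 of 9 alternatives and Pdgfrb under 8 of 9. The Doxo to Veh log2 ratio of Pdgfra, 0.03 as reported, ran from -0.28 without the inflammatory subcluster to 0.12 with every cell weighing the same, and that of Pdgfrb from -0.02 to 0.16. Ebf1 stood above the highest other class by 0.92 (log2) in Veh with 20 principal components, where the unnamed cluster did not form, and by 0.42 as reported. Ebf3 in Veh ran from 3.38 with the stricter cell filter to 4.63. Scaling by median ratios moved the median of all genes in CAR-like cells from 0.06 to 0.02. No paired analysis was possible because each condition has 1 library. Low counts limited the endothelial-like, osteoblast-like, chondrocyte-like and unnamed values, with fewer than 50 UMIs for several of the genes per library. Chondrocyte-like cells had the low counts at median depths of 19484.5 and 14678.5 UMIs per cell.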

Other observations

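The 8 CAR marker genes used for naming did not move alike between the libraries in CAR-like cells. Hp, which encodes haptoglobin (4534 and 7306 CPM), Lpl, the lipoprotein lipase gene (4728 and 7367 CPM), and Gas6 (2143 and 3330 CPM) were higher in Doxo past 1.5-fold, with log2 ratios of 0.69, 0.64 and 0.64. Of all genes tested in CAR-like cells, 13.3% were higher by that fold. Cxcl12 had 21907 and 24647 CPM and Adipoq 2929 and 3491 CPM. Esm1 (1961 and 1561 CPM, -0.33) and Kitl, the stem cell factor gene (2017 and 1822 CPM, -0.15), were lower in Doxo within the fold, on the same side as Lepr. Il7 (206 and 190 CPM) had -0.12 (-0.29 to 0.05), an interval that held 0.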
